A study of Gallus gallus with 8 samples.

Results

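Hox genes and their cofactors were described in sorted cells of the chick neural tube. The members were all genes whose Symbol in the deposited table begins with HOXA, HOXB, HOXC or HOXD, MEIS, PBX or TSHZ, followed by a digit. Where a Symbol had several probe sets, the one with the highest mean over the 8 arrays was taken. This gave 28 of 13257 symbols, namely 23 Hox genes (9 HOXA, 6 HOXB, 3 HOXC and 5 HOXD) and 5 cofactors, among them MEIS2, TSHZ1, TSHZ2 and TSHZ3.

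Judging by its title, the study was about Wnt inhibition by Dact genes while neural crest cells delaminate. White Leghorn embryos at stage HH10/11 were electroporated at trunk levels with pBRE-tk-EGFP, a green reporter of BMP signalling, together with pCAGGS-IRES-H2B-RFP, a red nuclear marker of electroporated cells, and cells were sorted 24 h later. BRE_active cells were red and green (4 arrays), and BRE_inactive cells were red without green (4 arrays). All arrays therefore come from cells of embryos that received both plasmids. The red marker shows uptake of its own plasmid, and whether each BRE_inactive cell also took up the reporter is not given. There is no array of untreated tissue. Each array holds cells pooled from nearly 30 embryos, and both fractions of a pool came from the same embryos, so pools 1 to 4 pair the arrays. Values are log2 expression, differences are BRE_active minus BRE_inactive on that scale, and n = 4 arrays per group throughout.

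Hox genes encode homeodomain transcription factors that lie in clusters, and their order along a cluster follows the order of their expression along the head to tail axis. Genes with low paralog numbers are expressed from the hindbrain backwards, those with middle numbers from the neck and chest, and those with high numbers towards the tail, and together they give neurons, neural crest and somites their axial level. MEIS and PBX proteins are homeodomain partners that bind DNA together with Hox proteins, and TSHZ proteins are zinc finger factors related to Drosophila teashirt, which acts with Hox genes to specify the trunk.

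The names needed a check, because the deposited table carries old symbols. By Entrez gene ID, the brightest probe set under the table's HOXC8 belongs to HOXC9. It is called HOXC9 here, and a dimmer probe set under the same symbol does belong to HOXC8. Probe sets of PBX3, PBX4, MEIS1 and a gene still listed as HOXC-6 carry other symbols and fall outside the rule. For the chosen probe sets, the table places the HOXA genes on chromosome 2, the HOXD genes on chromosome 7 and the HOXB genes on chromosome 27 except HOXB4, which like HOXC9, HOXC10 and HOXC11 has no placed chromosome. The dimmer HOXC8 probe set is placed on chromosome 1.

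Hox genes of all 4 clusters were detected on every array. Among the genes detected on every array, the highest paralog number was 10, reached in the HOXC cluster only. Not every Hox gene was measured. By gene ID, 26 Hox genes had a probe set, while a RefSeq table of chicken genes lists 35. No probe set was found for HOXB9, HOXD9 and HOXD10, so whether they were expressed is unknown. A present call is the deposited verdict that a probe set stood above background on an array. By the probe set chosen for each of the 28 members, 13 were present on all 8 arrays, 8 on some and 7 on none. Those present on some arrays included the more posterior genes HOXA13, HOXD11 and HOXD13. The 13 included HOXA3, HOXA4, HOXA6, HOXA7, HOXB3, HOXB4, HOXB5, HOXC9, HOXC10, HOXD4, MEIS2 and TSHZ3. The 7 that were present on none were HOXA9, HOXA10, HOXA11, HOXB1, HOXB2, HOXC11 and HOXD12. A dimmer HOXA11 probe set was present on 3 BRE_active arrays and 1 BRE_inactive array. Of all symbols, 46.1% were present on all 8 arrays, against 46.4% of the members. Brightness cannot be compared between probe sets, so the order of levels among different Hox genes is not given.

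Other properties of the arrays differ between the groups, and their part in the member values was not tested. Of the measured neural crest markers, 6 of 9 were called higher in BRE_active cells (adjusted p under 0.05 in limma), and their mean was 8.21 to 9.13 on BRE_active and 6.41 to 7.65 on BRE_inactive arrays. Red blood cell markers were called lower in 6 of 7 cases, with means of 6.43 to 9.56 on BRE_active and 11.1 to 13.05 on BRE_inactive arrays. Lower calls also covered 5 of 6 ventral and intermediate progenitor markers, 3 of 8 neuron markers and 2 of 10 neural progenitor markers, of which 9 were present on all 8 arrays. None of 13 somite and mesoderm, 6 motor neuron, 6 surface ectoderm and 7 notochord and caudal progenitor markers was called. Of them 1, 3, 1 and 1 had an unadjusted p under 0.05, as had 2254 of all 13257 symbols. In the fit with the pool as a block, described below, 1 motor neuron marker was called lower. In that fit 1 notochord and caudal progenitor marker was called higher. The somite genes FOXC1, TBX6, MYOD1 and MYF5 and the motor neuron genes MNX1, LHX3 and CHAT were present on no array. In sorted pools, fewer cells of a type and less RNA per cell cannot be told apart.

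By its chosen probe set, no member was called different between BRE_active and BRE_inactive cells in limma without the pool as a block. Where limma is named alone, that fit is meant. PBX3, outside the rule, and a second TSHZ2 probe set were called, as described below. Limma, fitted over all probe sets with group as its term and Benjamini-Hochberg adjustment, called 0 of 28 members at an adjusted p under 0.05, while 2.21% of all symbols were called. An unadjusted p under 0.05 was reached by 5 of 28 members, and by 2254 of all 13257 symbols. The 5 were HOXA6, HOXB4, HOXD13, TSHZ2 and TSHZ3. The median difference of the members was 0.02, against -0.02 over all symbols, and the members ranged from -0.55 for HOXA6 to 1.28 for TSHZ2. The 95% interval of the difference, without the block, lay within 2-fold in either direction for 22 of 28 members (78.6%), and for 93.4% of all symbols. The intervals that reached beyond were those of HOXA3, HOXB3, HOXC10, HOXD8, TSHZ2 and TSHZ3. With the pool as a block, only that of TSHZ2, from 0.92 to 1.64, did. The share of all symbols was not computed with the block. The groups did not overlap for HOXB4, HOXD13 and TSHZ2, which is 10.7% of the members against 8.98% of all symbols.

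With the pool as a block, which compares the fractions of the same embryos, 2 members were called higher and 2 lower. HOXA3 and TSHZ2 rose in BRE_active cells, and HOXA6 and HOXB4 fell. These 4 are 14.3% of the members, against 7.47% of all symbols called with the block. With the pool as a random block, HOXB4 and TSHZ2 were called, and HOXA3 and HOXA6 were not.

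**Figure D1:**
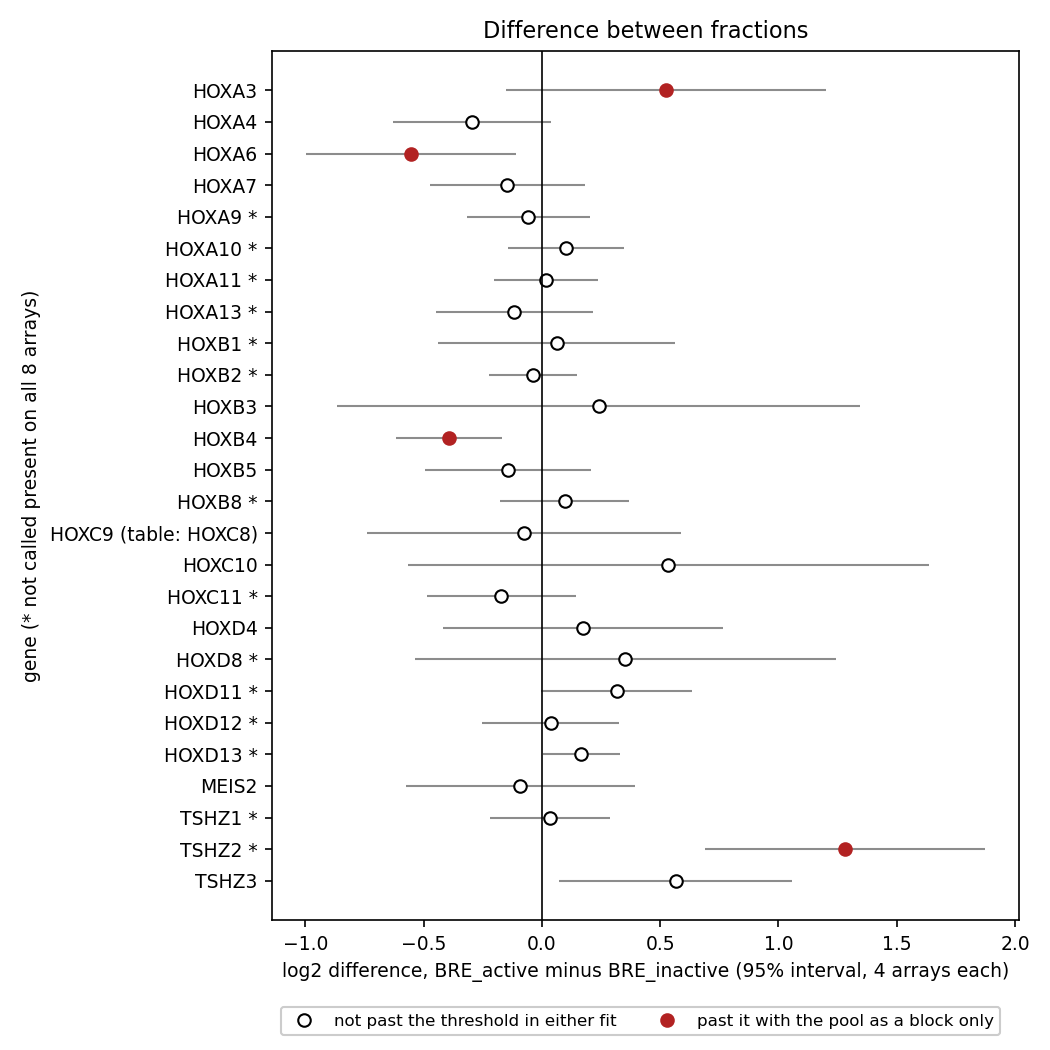
Log2 difference, BRE_active minus BRE_inactive (x axis), for 26 of the 28 members in cluster and paralog order (y axis). Lines are 95% intervals from limma without the block. Filled points are the 4 members called with the pool as a block, and the interval of TSHZ2, from 0.69 to 1.87, lies farthest from 0.

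The anterior HOXA genes had differences of both signs. HOXA3, a gene of the caudal hindbrain and pharyngeal arches, had values of 9.82, 10.04, 10.15 and 8.97 on the BRE_active arrays of pools 1 to 4, against 9.07, 9.47, 9.76 and 8.57 on the BRE_inactive arrays. Both arrays of pool 4 were the lowest of their group, and the groups overlapped, yet the BRE_active value was the higher in all 4 pools. The difference was 0.53 ± 0.30 (SE), with adjusted p = 0.476 in limma and 0.0169 with the pool as a block. Here and below, the SE of a difference is that of limma without the block. With the block the SE of HOXA3 was 0.09. A dimmer HOXA3 probe set that was present on no array gave -0.01 ± 0.09. A detected HOXA2 probe set, from a gene that specifies pharyngeal arch identity, gave -0.12 ± 0.20. HOXA4 averaged 9.14 ± 0.16 in BRE_active and 9.43 ± 0.30 in BRE_inactive cells (SD), with adjusted p = 0.423 in limma and 0.182 with the block.

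HOXA6 was the lowest member relative to BRE_inactive cells. Its values were 8.37, 8.83, 8.69 and 9.10 on the BRE_active arrays of pools 1 to 4, against 9.10, 9.25, 9.02 and 9.83 on the BRE_inactive arrays. The BRE_active value was the lower in all 4 pools, although the pool 4 array of BRE_active cells reached the range of the BRE_inactive arrays. The difference of -0.55 ± 0.20 had adjusted p = 0.263 in limma and 0.0180 with the block. In the fit with the block but without pool 4 it was -0.50 (adjusted p = 0.0638). HOXA7, its neighbour in the cluster, averaged 7.65 ± 0.19 in BRE_active and 7.80 ± 0.27 in BRE_inactive cells, and its second detected probe set gave -0.02 ± 0.17. The posterior genes HOXA9, HOXA10, HOXA11 and HOXA13, which also pattern the limb from shoulder to digits, differed by -0.12 to 0.10. HOXA13 was called present on 1 BRE_active array, HOXA9 and HOXA10 on none, and HOXA11 through its dimmer probe set alone, which gave 0.27 ± 0.24.

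In the HOXB cluster, HOXB4 separated the fractions. It marks the caudal hindbrain and spinal cord, and its values were 6.28, 6.36, 6.34 and 6.34 on the BRE_active arrays of pools 1 to 4, against 6.50, 6.79, 6.65 and 6.94 on the BRE_inactive arrays. Every BRE_active array lay below every BRE_inactive array. The difference of -0.39 ± 0.10 had adjusted p = 0.116 in limma and 0.04997 with the block, just under the threshold, and 0.143 with the block but without pool 4. HOXB3, whose products act in the caudal hindbrain, had a mean of 8.52 ± 0.90 in BRE_active and 8.28 ± 0.85 in BRE_inactive cells, with the lowest value of each group in pool 4. HOXB5, a gene of the brachial region, averaged 6.31 ± 0.16 in BRE_active and 6.45 ± 0.32 in BRE_inactive cells. HOXB1, which gives a hindbrain segment its identity, the hindbrain gene HOXB2 and the trunk gene HOXB8 differed by 0.06, -0.04 and 0.10. HOXB8 was present on 2 BRE_active and 0 BRE_inactive arrays.

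The HOXC and HOXD genes had differences between -0.17 and 0.53, and none was called with or without the block. HOXC10, a gene of the lumbar spinal cord in mouse and chick, had the largest of them, 0.53 ± 0.49, with adjusted p = 0.668 in limma and 0.0897 with the block. It was higher in BRE_active cells in 3 of 4 pools. HOXC9, which represses limb-level motor neuron genes in the mouse thoracic cord, differed by -0.07 ± 0.30, and the lumbosacral gene HOXC11 by -0.17 ± 0.14. HOXD4, a caudal hindbrain gene, differed by 0.17 ± 0.26 and was higher in BRE_active cells in 4 of 4 pools, though by 0.01 in pool 2. HOXD11, known for limb and sacral patterning, was present on 4 BRE_active and 0 BRE_inactive arrays. Its measured difference was 0.32 ± 0.14, or 1.24-fold, and was not called (adjusted p = 0.361 in limma, 0.116 with the block). HOXD13, a gene of the tail and digits, differed by 0.17 ± 0.07 without overlap of the groups (adjusted p = 0.350 in limma, 0.302 with the block). It was present on 3 BRE_active arrays and 1 BRE_inactive array. HOXD8, a gene of the trunk, and HOXD12, a gene of the tail and limb, differed by 0.35 ± 0.40 and 0.04 ± 0.13.

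The cofactors held the largest difference, that of TSHZ2. Its values were 5.49, 5.38, 5.07 and 4.18 on the BRE_active arrays of pools 1 to 4, against 3.74, 3.82, 4.03 and 3.40 on the BRE_inactive arrays. All BRE_active values lay above all BRE_inactive values, and pool 4 was the lowest in both groups. This probe set was present on 4 BRE_active and 0 BRE_inactive arrays. The difference was 1.28 ± 0.26, with adjusted p = 0.0526 in limma and 0.0032 with the block. Without the BRE_active array of pool 4 it was 1.56 with adjusted p = 0.0018. In limma without the block, leaving out any other single array, or both arrays of pool 1, 2 or 3, gave no call for it.

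A second TSHZ2 probe set gave the same direction and was present on 4 BRE_active and 3 BRE_inactive arrays, so TSHZ2 was detected in both fractions. It had values of 4.60, 5.08, 4.81 and 4.53 on BRE_active arrays, against 3.79, 3.80, 3.77 and 4.01 on BRE_inactive arrays, again without overlap. Its difference of 0.91 ± 0.12 was called in limma (adjusted p = 0.00867). Leaving out both arrays of pool 1, 2 or 3 raised that adjusted p to 0.0745, 0.0628 and 0.110. The other TSHZ2 probe sets were dimmer and gave 0.16 ± 0.09 and 0.05 ± 0.09. TSHZ2 belongs to the same family as TSHZ3, which had values of 7.33, 7.19, 7.20 and 6.30 on BRE_active arrays, against 6.24, 6.54, 6.73 and 6.24 on BRE_inactive arrays. The BRE_active array of pool 4 lay within the BRE_inactive range and the other BRE_active arrays above it. The TSHZ3 difference was 0.57 ± 0.22 (adjusted p = 0.300 in limma, 0.0726 with the block), and without that array it was 0.80 (adjusted p = 0.0142). TSHZ3 was not called in limma when any other single array, or both arrays of pool 1, 2 or 3, were left out. TSHZ1, the other measured teashirt gene, differed by 0.03 ± 0.11.

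MEIS2, a homeodomain partner of PBX and Hox proteins, was not called. It averaged 6.67 ± 0.29 in BRE_active and 6.76 ± 0.43 in BRE_inactive cells, with a 95% interval of the difference from -0.58 to 0.39. PBX3, a homeodomain partner of Hox proteins that the rule misses through its old symbol, was named after its values had been seen. Its values were 8.65, 8.59, 8.70 and 8.48 on BRE_active arrays, against 7.69, 8.01, 7.97 and 7.63 on BRE_inactive arrays. The groups did not overlap and PBX3 was present on all 8 arrays. The difference of 0.78 ± 0.11 was called in limma (adjusted p = 0.00875) and with the block (adjusted p = 0.0030), but not without pool 1, 2 or 3 (adjusted p = 0.102, 0.0603 and 0.0754). PBX4 (its brightest probe set) and MEIS1 differed by -0.03 ± 0.15 and -0.13 ± 0.25. The MEIS1 probe set was present on no array, so its difference lies near background signal.

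**Figure D2:**
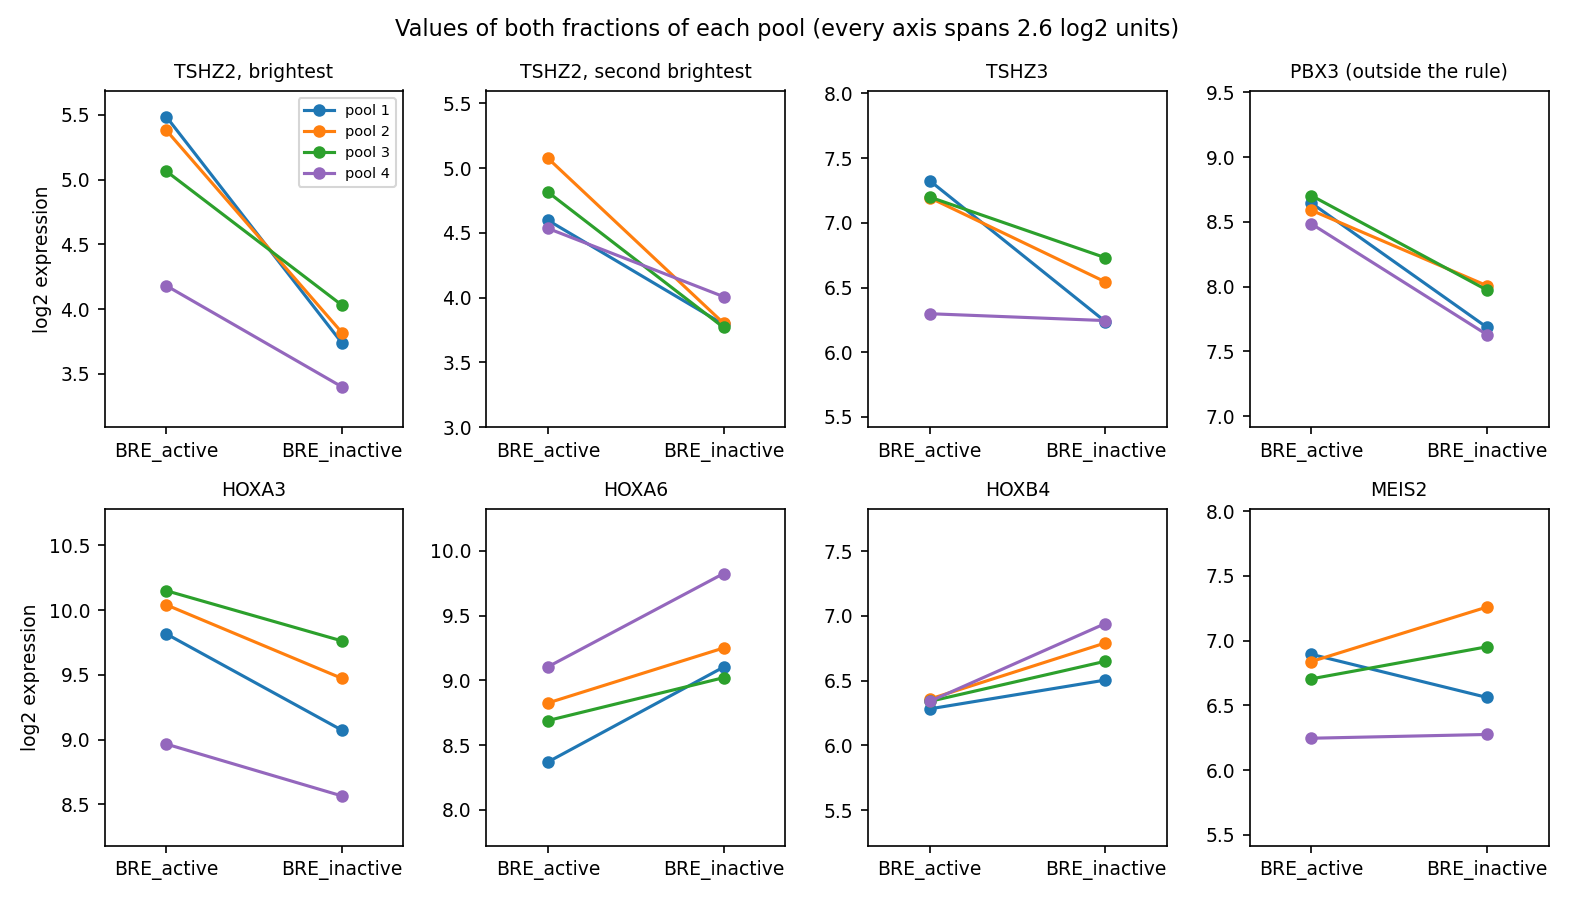
Log2 expression (y axis) of the BRE_active and BRE_inactive array of each pool (x axis), joined by a line per pool, for TSHZ2 (brightest and second brightest probe set), TSHZ3, PBX3, HOXA3, HOXA6, HOXB4 and MEIS2. In all 4 pools the BRE_active value is the higher for both TSHZ2 probe sets, PBX3 and HOXA3 and the lower for HOXA6 and HOXB4, while the MEIS2 lines cross.

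Values of some Hox genes differed between the pools, too. The embryos of a pool and any handling shared by its arrays cannot be told apart. A limma F test over the pool terms, in a fit with group and pool, was added after the pool differences had been seen. It called 5 of 28 members (17.9%), against 1.62% of all symbols. Of the 13 members present on all 8 arrays these are 38.5%, against 3.01% of all symbols present on all 8 arrays. The 5 were HOXA3, HOXB3, HOXC9, HOXC10 and HOXD4, and no cofactor was among them. An unadjusted p under 0.05 in this F test was reached by 11 of 23 Hox members, 3 of 5 cofactors and 2589 of all 13257 symbols. Leaving out any single array of pool 2, 3 or 4, or both arrays of such a pool, left 0 members called, and then 0 or 1 of all probe sets was called too.

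Pool 4 differed from the other pools in opposite directions for several anterior and posterior Hox genes. Its mean was the highest or lowest of the 4 pools for 10 of 11 Hox genes present on all 8 arrays (90.9%). That also held for 76% of all symbols present on all 8 arrays. HOXB3 had values of 8.98, 8.93, 9.01 and 7.17 on the BRE_active arrays of pools 1 to 4, against 8.02, 9.02, 8.90 and 7.20 on the BRE_inactive arrays. The pool 4 array was the lowest in both groups, and the pool means spanned 1.80 log2 units, or 3.47-fold (adjusted p = 0.0351). HOXD4 had values of 11.21, 10.95, 11.08 and 10.12 on BRE_active arrays, against 10.72, 10.94, 10.96 and 10.05 on BRE_inactive arrays. Pool 4 was again the lowest in both, with a range over pools of 0.93 (adjusted p = 0.0467). HOXA3, whose values are above, had a range of 1.19 (adjusted p = 0.0350).

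The more posterior HOXC genes were highest in pool 4. HOXC10 had values of 7.57, 8.02, 8.90 and 9.59 on the BRE_active arrays of pools 1 to 4, against 7.61, 7.17, 8.01 and 9.14 on the BRE_inactive arrays. Pool 4 was the highest in both groups and the range over pools was 1.77, or 3.41-fold (adjusted p = 0.0350). HOXC9 had values of 7.22, 7.81, 8.06 and 8.54 on BRE_active arrays, against 7.45, 8.07, 7.80 and 8.60 on BRE_inactive arrays. Pool 1 was the lowest and pool 4 the highest in both groups, with a range of 1.24 (adjusted p = 0.0369). HOXD8 showed the same order of pools 1 and 4, with a range of 1.58 (adjusted p = 0.0551), but was called present on only 3 BRE_active and 2 BRE_inactive arrays.

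**Figure D3:**
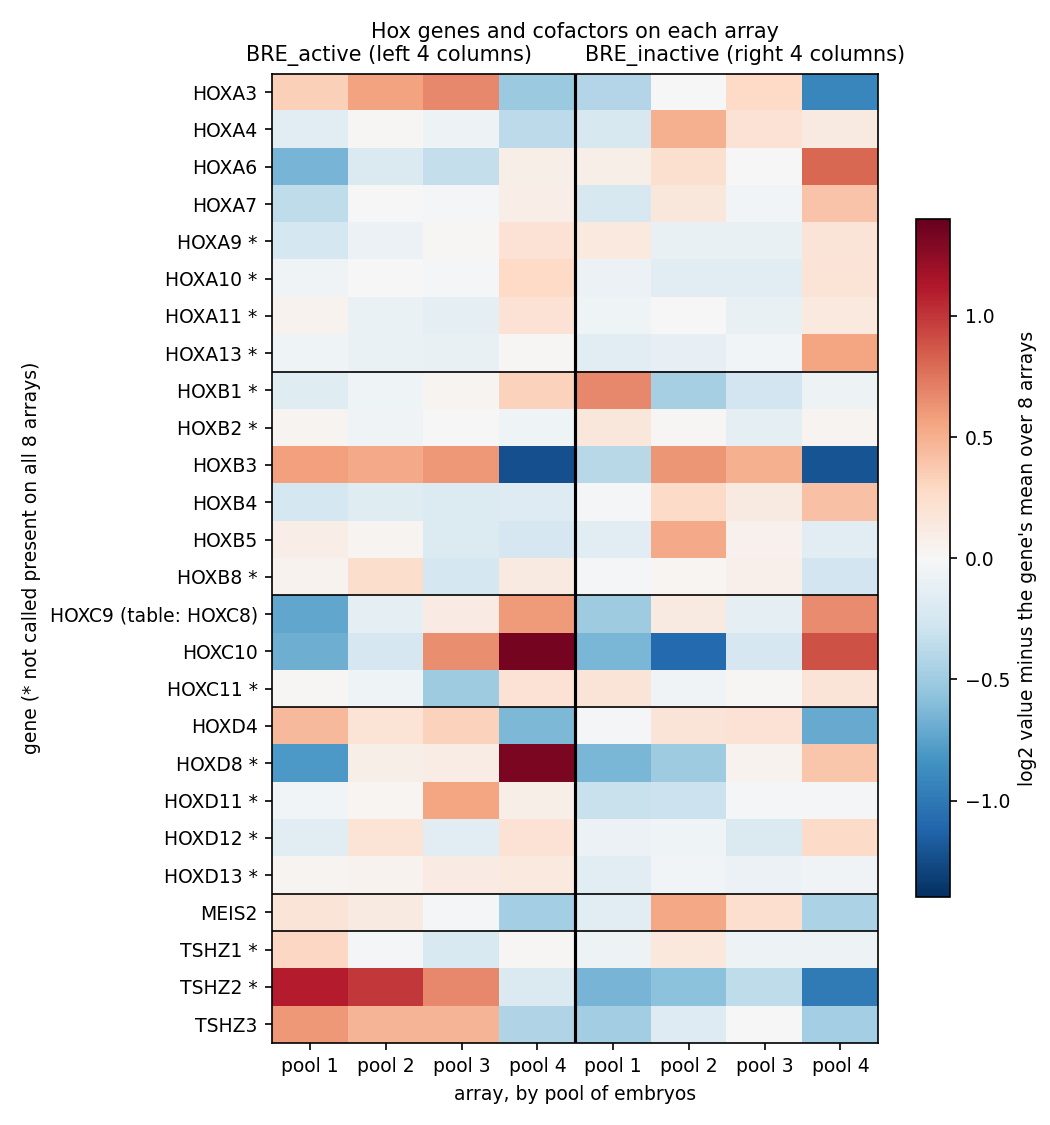
Log2 value of 26 of the 28 members minus the member's own mean over 8 arrays (colour), for the arrays of pools 1 to 4 in BRE_active (left) and BRE_inactive cells (right), with members in cluster and paralog order. In the pool 4 columns HOXA3, HOXB3 and HOXD4 are low and HOXC9, HOXC10 and HOXD8 are high.

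The 11 Hox genes present on all 8 arrays could be ordered by paralog number. They were split at paralog number 4 after the values had been seen. Of the 6 with paralog numbers up to 4, 5 were lower in pool 4 than in the mean of pools 1 to 3 in BRE_active cells, and 5 in BRE_inactive cells. HOXB4 was the exception in both. Of the 5 with paralog numbers 5 to 10, 4 were higher in pool 4 in BRE_active cells and 4 in BRE_inactive cells, with HOXB5 the exception. Across these 11 genes, paralog number and the deviation of pool 4 from the mean of pools had a Pearson r of 0.816 and a Spearman rho of 0.878. In BRE_active arrays alone r was 0.824 and in BRE_inactive arrays alone 0.804. For pools 1, 2 and 3 r was -0.885, -0.741 and -0.322. These are descriptions, since the genes share the same arrays and the 4 deviations of a gene sum to 0. The difference between fractions showed no such order (r = 0.090).

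**Figure D4:**
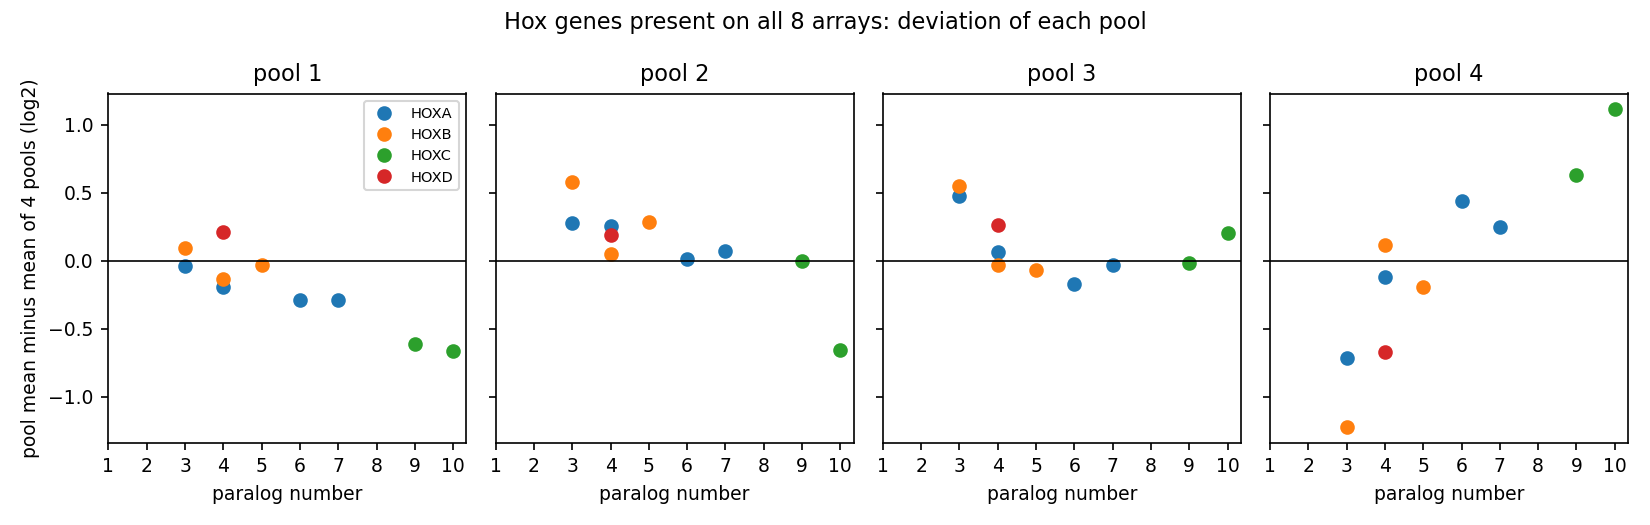
Mean of both arrays of a pool minus the mean of the 4 pools (y axis, log2) against paralog number (x axis) for 10 of the 11 Hox genes present on all 8 arrays, a panel per pool, coloured by cluster. In pool 4 the points climb from HOXB3 at -1.22 to HOXC10 at 1.11, and in pool 1 HOXC9 and HOXC10 are lowest, at -0.61 and -0.66.

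Pool 4 also differed in general properties, whose part in its Hox values was not tested. Of the 13 members present on all 8 arrays, 9 (69.2%) had pool 4 as the lowest or as the highest array in both groups alike, against 44.2% of all symbols present on all 8 arrays. Its arrays had 14437 present calls in BRE_active and 13428 in BRE_inactive cells, the lowest of each group. The mean difference between 3′ and 5′ control probe sets was 2.39 and 2.18, against 2.59 to 3.24 on the other arrays. Its neural crest marker means of 8.21 in BRE_active and 6.41 in BRE_inactive cells were the lowest of each group. Its somite and mesoderm marker means, of genes from tissue that also expresses Hox genes, were the highest of each group, at 5.76 in BRE_active and 5.25 in BRE_inactive cells. Those of pool 3 were close, at 5.74 in BRE_active and 5.22 in BRE_inactive cells. Of the 13 somite and mesoderm markers, 8 had pool 4 as the highest array in both groups, as had 2696 of all 13257 symbols. Only 5 of the 13 markers were present on all 8 arrays, and of those, 3 had pool 4 highest in both groups.

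Among other genes of the Hox network, 1 TALE homeobox gene rose, and another fell with the pool as a block. Of 6 measured TALE genes other than the members, PKNOX1, a partner of PBX proteins, was called higher, with a difference of 0.76 ± 0.14 (adjusted p = 0.0319 in limma). It was present on 3 BRE_active arrays and 1 BRE_inactive array. Leaving out any of 6 of the 8 single arrays, all but BRE_active 4 and BRE_inactive 1, ended that call, as did leaving out pool 1, 2 or 3, with adjusted p up to 0.246. IRX1, an Iroquois homeobox gene of neural patterning, was present on all 8 arrays and lower in BRE_active cells in 4 of 4 pools. Its difference of -0.65 ± 0.25 had adjusted p = 0.293 in limma and 0.0166 with the block.

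Of 17 regulators upstream of Hox genes, 14 were measured, of which 1 rose and 1 fell in limma, and 2 rose and 1 fell with the block. The gene that fell was GBX2, a homeobox gene of the anterior hindbrain and spinal cord. It had values of 9.34, 9.39, 9.19 and 9.22 on BRE_active arrays, against 9.96, 10.32, 10.16 and 9.65 on BRE_inactive arrays. Every BRE_active value was the lower, with a difference of -0.74 ± 0.14 (adjusted p = 0.0329 in limma). GBX2 was also the only gene called in limma among 8 measured brain axial level genes. Of those 8, 1 rose and 1 fell with the block. The GBX2 call held with the block (adjusted p = 0.0078). It was lost without pool 1, 2 or 3 and in 6 fits without a single array, with adjusted p up to 0.260.

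Regulators of Hox chromatin and Hox-dependent neuron genes were not called in limma. Of 15 measured Polycomb and Trithorax genes, which keep Hox genes silent or active, 0 were called, 2 had an unadjusted p under 0.05, and 1 rose with the block. The median difference of the 15 was 0.08. Only 4 of the 15 were present on all 8 arrays, and 7 were present on none. Of 7 measured Hox-dependent genes of motor neurons, 0 were called, 1 had an unadjusted p under 0.05, and 0 were called with the block. Only 2 of these 7 were present on all 8 arrays, and 4 were present on none. In the F test over pools, 2 of the 14 measured regulators upstream of Hox genes were called, against 1.62% of all symbols. One was CDX4, a caudal activator of Hox genes, with a range of 1.24 (adjusted p = 0.0370 in that F test). CDX4 was present on only 2 BRE_active and 2 BRE_inactive arrays. Its values of 3.75, 4.22, 5.16 and 4.48 on BRE_active arrays, against 4.24, 4.00, 5.32 and 4.78 on BRE_inactive arrays, were highest in pool 3 in both groups. CDX2, which acts alike, had a range of 0.42 (adjusted p = 0.264).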

How the data were processed

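The authors deposited log2 expression values of 38535 Affymetrix probe sets on 8 arrays, with the count of arrays per group that carried a present call, and adjusted p-values of their own. For background correction, normalization, probe summary, caller and genome build, the methods were not given in the sources used here. The deposited values can thus carry choices that are unknown here, and the number of arrays limits their precision. Array medians were 4.24 to 4.32, pairs of arrays correlated at 0.974 to 0.996, and no arrays were identical.

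The 96 control probe sets were left out. The other 38439 were fitted with lmFit and eBayes of limma 3.58.1 under R 4.3.3, with no term other than group, and p-values were adjusted over all of them by Benjamini-Hochberg (threshold 0.05). The authors' deposited adjusted p-values differed from this fit over all probe sets by at most 6.41e-13. Percentages over all symbols use 1 probe set per Symbol. Symbols were updated by Entrez gene ID with a RefSeq table of assembly GRCg7b, which matched 22915 of 26132 probe sets with an ID. It was used for names only.

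Arrays were grouped by the labels' sorted population, and the pool number pairs them because both fractions came from the same embryos, per the labels. Deviations from the group means of same-numbered arrays correlated at -0.141, 0.203, 0.498 and 0.584 in pools 1 to 4 over all probe sets, and at 0.298, 0.796, 0.562 and 0.896 over the 28 members. The tests were checked on simulated data with known changes added to independent noise of a common spread. That check cannot show how the fits behave under the pool correlations above. Alternatives covered the block, filters on present calls, normalization, centring, variance model, array weights, choice of probe set and leaving out arrays or pools.

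Members and gene lists were chosen with earlier results of these data known. Of the 28 members 26 are given by name. Values on each array are given for members called with or without the block and for members needed beside them. Only some of the called list genes are named, and called cell type markers are given as counts. A few genes are not reported here, though counts over all members include them.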

Additional observations from a re-analysis of the deposited data

Results flagged for a closer look

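In 4 of 64 sets of 4 arrays (28 members and 4 genes outside the rule, in each group), 1 array lay far from the other 3 of its group, where chance gives about 1 in 20. HOXB3 was 7.17 on the BRE_active array of pool 4, against 8.93 to 9.01 on the other BRE_active arrays. TSHZ3 was 6.30 on the same array, against 7.19 to 7.33. HOXA10, present on no BRE_active array, was 4.01 there, against 3.69 to 3.73. TSHZ1 was 4.68 on the BRE_inactive array of pool 2, against 4.45 to 4.46 on the other BRE_inactive arrays.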

How the results depend on the processing

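The count of members called between BRE_active and BRE_inactive cells was 0, and it was 0 with quantile normalization and with array medians subtracted. It was 4 with the pool as a replicate block, where the pools pair the arrays (2156 of all probe sets, against 517), and 2, HOXB4 and TSHZ2, with the pool as a random block (1068 probe sets). It was 1, TSHZ2 each time, with either filter on present calls, the trended and robust variance model, array weights (1040 probe sets), 1 probe set per Symbol and the mean of all probe sets, and 1 with names by gene ID, PBX3, an alternative added after seeing the data. Leaving out arrays or pools gave 0 to 3 members and 77 to 1653 probe sets, both highest with the block and without pool 4. The cause of these shifts was not tested. The count called among pools, 5, ranged from 0 to 9 when arrays or pools were left out and was 4 to 6 under the other settings.

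Small differences changed sign. Array weights gave -0.0191 for HOXA11. The mean of all probe sets gave -0.0153 for HOXB1 and -0.0358 for HOXB3. Dimmer probe sets gave -0.0123 for HOXA3, -0.0232 and -0.129 for HOXA11, -0.0931 for HOXB1, -0.312 for HOXB3 and -0.111 for HOXD8. Leaving out arrays or pools gave -0.134 to 0.0526 for HOXA9, -0.0498 to 0.0629 for HOXA11, -0.191 to 0.0468 for HOXA13, -0.0813 to 0.365 for HOXB1, -0.0990 to 0.00642 for HOXB2, -0.122 to 0.692 for HOXB3, -0.274 to 0.00999 for HOXB5 and -0.00410 to 0.231 for HOXB8. It gave -0.286 to 0.155 for HOXC9, -0.0331 to 0.412 for HOXD4, -0.0279 to 0.680 for HOXD8, -0.0307 to 0.132 for HOXD12, -0.253 to 0.0746 for MEIS2 and -0.0765 to 0.110 for TSHZ1. For the 7 members whose chosen probe set was present on no array, differences lie near background signal.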
